A study of Arabidopsis thaliana with 15 samples.

Results

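The data described here cover the step from 12 to 24 h in a time course of xylem differentiation induced in Arabidopsis leaf disks. The members were chosen by the array titles alone: the 3 arrays of 24 h were set against the 3 of 12 h, 6 of 15 arrays in all. Every probe set on the array that was not an Affymetrix control entered the comparison, which made 22746. All groups shared 1 genotype, the wild-type ecotype Col-0, grown for 25 days under continuous light. Rosette leaves were punched into disks 1 mm across. The culture medium held the synthetic auxin 2,4-D at 1.25 mg/L, the cytokinin kinetin at 0.25 mg/L and bikinin, which inhibits GSK3 kinases, at 10 µM. Both times carried this treatment, and the series had no disks cultured without the compounds, so their effects and those of cutting and time in culture cannot be told apart. The titles number the replicates without stating that these were separate cultures, so the p-values rest on a spread between arrays that may be technical.

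In this culture system mature leaf cells resume division, pass through a procambium-like state and then become tracheary elements. Tracheary elements are the water-conducting cells of xylem, which lay down a patterned secondary wall of cellulose, xylan and lignin and then die. Division itself follows a set order of gene activity: histone and replication genes in S phase, then Aurora kinases, spindle checkpoint proteins and cytokinetic kinesins in mitosis. The comparison asked which transcripts changed between the first 12 h in culture and the next sampling.

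Signals are the deposited intensities, on a linear scale and scaled alike on every array. Changes are log2 of 24 h over 12 h, with the standard error of limma's fit over all 15 arrays and n = 3 arrays per time. A probe set was called where its Benjamini-Hochberg adjusted p over all 22746 was under 0.05. Signals under 34.2, the 30th percentile of all group means, are termed dim, and folds that rest on them are uncertain in size. The tissue was bulk, so fewer cells of a type and less RNA per cell cannot be told apart.

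The 2 times were not separated as whole profiles. Correlations were taken across the 17856 probe sets that were not dim at all 5 times. Arrays of 12 h correlated with each other at r = 0.885 to 0.930 and arrays of 24 h at 0.895 to 0.939. Arrays of different times correlated at 0.795 to 0.936. Of the 24 h arrays, replicate 3 stood closest to replicates 2 and 3 of 12 h, and replicate 2 stood closest to replicate 1 of 12 h. With the 12 h arrays in order, replicate 3 of 24 h correlated at 0.914, 0.936 and 0.907. Replicate 2 of 24 h gave 0.917, 0.923 and 0.852, and replicate 1 of 24 h gave 0.902, 0.878 and 0.795. As a marker of leaf mesophyll, LHCB4.2, which encodes a light-harvesting antenna protein and had a mean signal of 29014 at 0 h, gave 206.5, 602.1 and 220.7 at 12 h and 1145.3, 658.0 and 334.7 at 24 h. The times overlapped (1.07 ± 0.69, adjusted p = 0.554). Its change was the largest of the 21 measured nuclear photosynthesis genes, whose median was 0.42.

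Between 12 and 24 h, 78 of 22746 probe sets changed (0.343%), 65 upward (0.286%) and 13 downward (0.0572%). Every one of the 78 changed at least 2-fold and had signals that did not overlap between the times. Of all probe sets, 11.7% had every 24 h signal above every 12 h signal and 7.17% below. At least 2-fold, 2341 of all probe sets were higher and 2271 lower. Both traits go with a small p, so they add no support to the calls. The folds of the 78 ran from 2.11 to 47.1 with a median of 7.64. Over all probe sets the median log2 change was 0.06, and 3018 (13.3%) had an unadjusted p under 0.05, 8.26% upward and 5.01% downward. Counts of unadjusted p under 0.05 in the gene lists below are to be read beside these shares. Only 38 of the 78 were paired with a single gene, 32 higher and 6 lower. The others were 38 probe sets that the annotation table used here does not list and 2 that it pairs with several genes. The lower mean was dim for 25 of the 78, and both means were dim for 6. In the same fit 7760 probe sets (34.1%) were called between 0 and 12 h and 17 (0.0747%) between 24 and 36 h, comparisons that share the arrays of 12 h or 24 h with this one.

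The replicate numbers were taken to pair the samples of the 2 times, which the titles do not state. With the number as a block 72 probe sets were called (0.317%), 41 higher (0.18%) and 31 lower (0.136%). Of these, 38 were also among the 78, which is 48.7% of the calls without the block and 52.8% of the calls with it. The share of calls that were upward was 83.3% without the block and 56.9% with it. Centring each array on its median gave 63 calls, 43 of them upward (68.3%). The calls also rested on single arrays: by limma 0 were called without replicate 3 of 12 h, replicate 1 of 24 h or replicate 2 of 24 h (1993, 1931 and 2248 at an unadjusted p under 0.05), 23 were called without replicate 2 of 12 h, and 205 without replicate 3 of 24 h. The direction of all 78 was the same under each of these omissions, as it must be where signals do not overlap between the times.

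**Figure D1:**
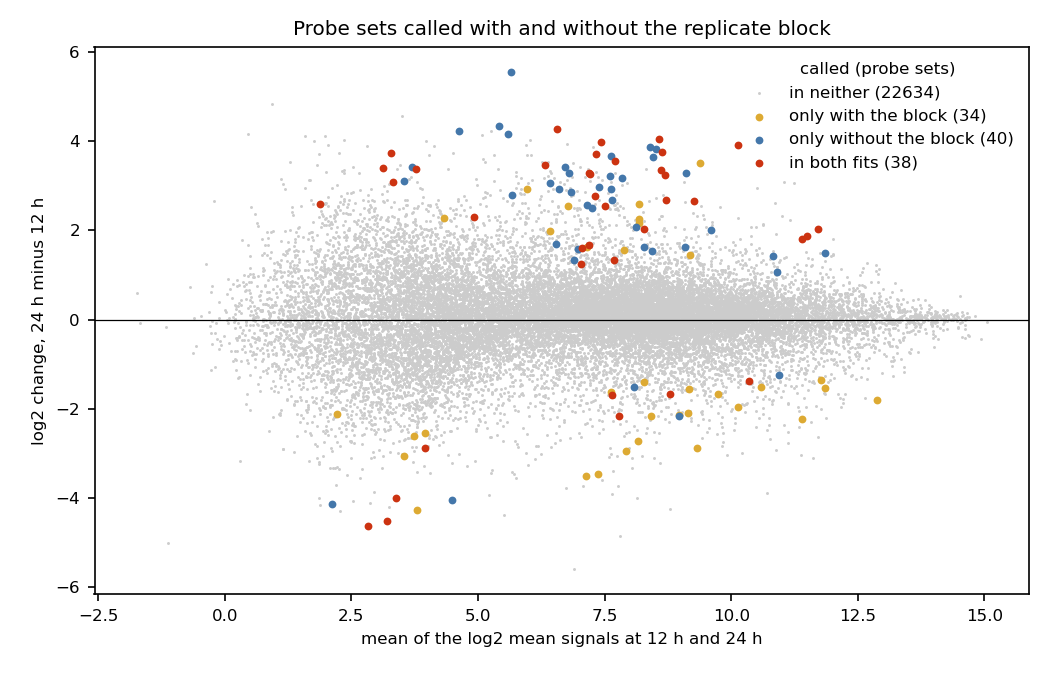
Each point is 1 of 22746 probe sets, placed by the mean of its log2 mean signals at 12 h and 24 h (x axis) and its log2 change, 24 h minus 12 h (y axis). Colours mark probe sets called without the replicate block, with it, in both fits (38) or in neither; most calls without the block lie above 0, while those made only with it lie on both sides.

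Among named genes the highest called changes were those of loci that the gene table gives no symbol. AT1G49870 had signals of 2.90, 19.9 and 7.55 at 12 h and 292.1, 175.9 and 72.8 at 24 h. All 3 signals of 12 h were dim, and the times did not overlap. It rose by 4.36 ± 0.66 (adjusted p = 0.0337; with the block 0.0543). AT2G42110 gave 29.6, 22.6 and 9.35 at 12 h and 735.4, 424.8 and 149.5 at 24 h. It was dim on every 12 h array and its lowest 24 h signal was again that of replicate 3. It rose by 4.29 ± 0.59 and was called with the block as well (adjusted p = 0.0449).

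AT4G21820 (4.23 ± 0.66) and AT4G28430 (4.16 ± 0.69) also rose from dim signals, and both calls were lost with the block (adjusted p = 0.0577 and 0.0592). Brighter at the start was AT4G15830, with 108.6, 102.6 and 44.2 at 12 h against 3063.3, 1522.4 and 492.6 at 24 h. Its lowest 24 h signal was well above its highest 12 h signal, and it rose by 4.06 ± 0.70 (adjusted p = 0.0393; with the block 0.0449). AT3G42725, AT5G62550, AT3G02120 and AT3G02640 rose by 3.98, 3.71, 3.67 and 3.65 on the log2 scale. Of these, AT3G42725 and AT5G62550 were called with the block, and AT3G02120 and AT3G02640 were not (0.0577 and 0.0514).

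The 1 gene with a symbol among the 10 highest was BGLU15, a beta-glucosidase that splits sugars from glycosides. Its signals were 106.8, 71.3 and 67.3 at 12 h and 1874.7, 1738.2 and 507.4 at 24 h. The 3 arrays of 12 h lay close together, and replicate 3 was the low one at 24 h. It rose 14.8-fold (3.88 ± 0.70, adjusted p = 0.0464), a call that was lost with the block (0.0717). Its mean was 4634 at 36 h and 5345.3 at 48 h. Of 20 measured beta-glucosidase genes it was the only one called.

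FU, the Arabidopsis FUSED kinase known from cytokinesis, was called in both fits. Its signals were 72.3, 50.6 and 49.2 at 12 h and 750.5, 372.9 and 203.2 at 24 h. The lowest array of 24 h was well above the highest of 12 h. FU rose 6.81-fold (2.77 ± 0.44, adjusted p = 0.0339; with the block 0.0449). ATMPK13, a mitogen-activated protein kinase, was chosen for mention from its value. It gave 95.1, 53.1 and 56.1 at 12 h and 1366.5, 715.7 and 212.4 at 24 h, and rose by 3.17 ± 0.55 (adjusted p = 0.04) without being called with the block.

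Not all rising genes had uneven 24 h arrays. AT3G54040, which has no symbol in the gene table, gave 79.1, 75.8 and 68.9 at 12 h and 395.0, 476.9 and 449.1 at 24 h. The 3 arrays of each time were close together. It rose 5.89-fold (2.56 ± 0.32, adjusted p = 0.0337; with the block 0.0315), with log2 changes from 2.50 to 2.64 when any 1 array was left out. Its mean was 2147.3 at 36 h, and it was also called between 24 and 36 h (2.23, adjusted p = 0.0342), a comparison that shares the 24 h arrays. AT5G37240 rose by 3.08 ± 0.48 between dim signals.

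**Figure D2:**
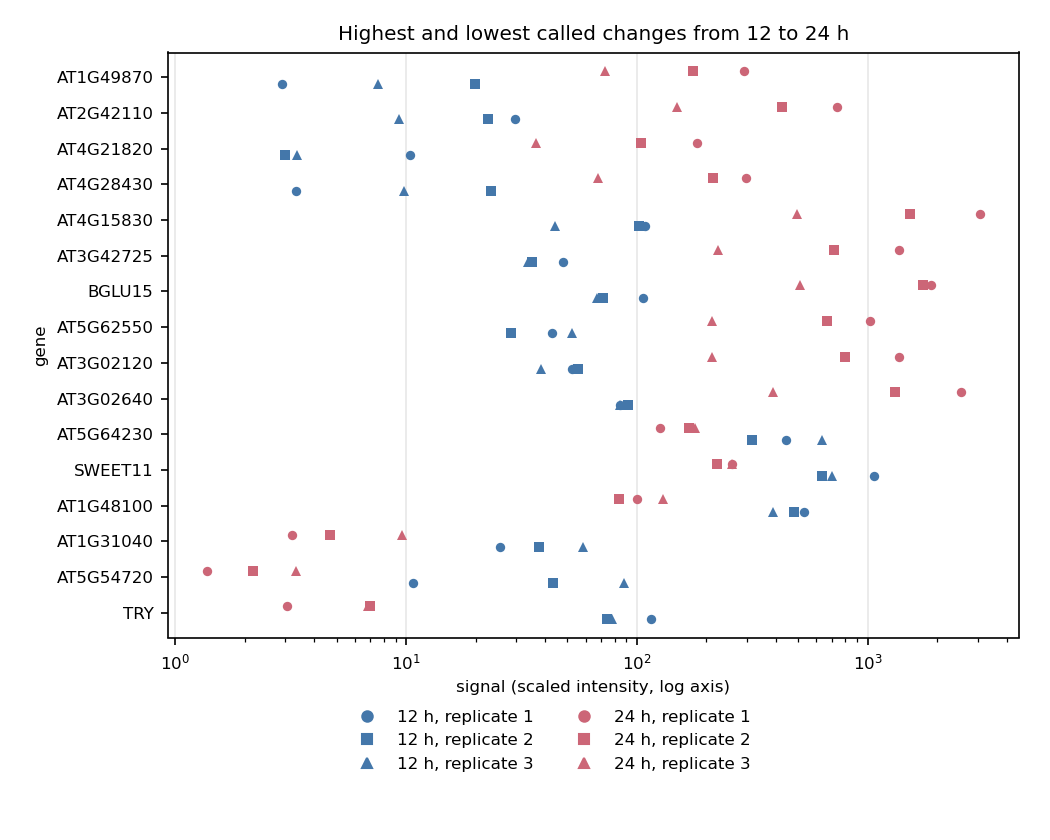
Signals on each array (x axis, log scale) for the 10 highest and the 6 lowest called changes among named genes (y axis); blue is 12 h, red is 24 h, and the marker shape is the replicate number. In each of the 10 rising genes the lowest red point is replicate 3. The colours do not overlap in any gene because the selection required it.

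Genes of mitosis and cytokinesis were the gene list with the highest median, but none of its 24 measured members was called among all 22746 probe sets. The list names 53 genes, and the others matched no probe set paired with a single gene. Whether any of those is among the 38 called probe sets without a listed gene cannot be told here. The list's median log2 change was 1.53, beside 0.06 for all probe sets, and all 24 changes were above 0. In 14 of the 24 every 24 h signal was above every 12 h signal, which held for 11.7% of all probe sets, and 16 had an unadjusted p under 0.05 upward, beside 8.26%. The list, like the others, was chosen with earlier results of these data known, so standing above those values adds no support. With probe sets left out whose 5 group means were all dim, 17856 were tested, 218 were called (1.22%, with 0.98% upward), and 6 of the 24 were called higher. The 6 were AUR2, 3xHMG-box2, TOPII, UBC20, WYR and Haspin. An offset of 32 before log2 also gave 6 calls of 24, as did a prior variance that follows the signal and leaving out replicate 3 of 24 h. With the block 0 of 24 were called.

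The Aurora kinases, which set up the spindle and the division plane, showed the pattern by array. AUR2 had signals of 60.0, 36.9 and 79.1 at 12 h and 1384.7, 669.8 and 175.6 at 24 h. The times did not overlap, but the 24 h arrays differed widely, with replicate 1 highest and replicate 3 lowest. The log2 change was 3.29 ± 0.65 (adjusted p = 0.0539; with the block 0.0594; with dim probe sets left out 0.0319). AUR1 had the same order of arrays at 24 h, with 934.6, 480.5 and 194.1 after 79.7, 53.6 and 115.6 at 12 h (2.49 ± 0.57, adjusted p = 0.0871). AUR3 was dimmer, and its change was 2.20 ± 0.81 (adjusted p = 0.271).

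WYR, the INCENP partner of Aurora in the chromosomal passenger complex, gave 51.5, 27.6 and 26.9 at 12 h and 198.8, 110.8 and 85.8 at 24 h (1.88 ± 0.41, adjusted p = 0.0774). Haspin, the histone H3 kinase that marks centromeres for that complex, gave 23.9, 26.0 and 23.7 and then 111.3, 74.3 and 62.9 (1.71 ± 0.38, adjusted p = 0.0805). The signals of both genes at 24 h lay above all of those at 12 h. Among genes of the spindle checkpoint, which delays anaphase until chromosomes are attached, BUBR1 changed by 3.11 ± 0.77 (adjusted p = 0.111), BUB3.2 by 1.82 ± 0.63 and BUB3.1 by 1.39 ± 0.43. HTR12, the centromeric histone H3, changed by 1.61 ± 0.44 (adjusted p = 0.146).

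UBC20, an E2 enzyme of the kind that serves cyclin degradation, had signals of 259.2, 255.5 and 237.2 at 12 h and 3224.8, 1610.2 and 605.6 at 24 h. The 12 h arrays were within a narrow range, and again replicate 3 was the lowest of 24 h. The log2 change was 2.55 ± 0.50 (adjusted p = 0.0527; with the block 0.0594). UBC19, its close relative, gave 1094.5, 1312.7 and 1320.9 and then 1693.1, 1573.2 and 810.1, which overlapped (0.06 ± 0.32). Closely related genes can share probes, and how the probe sets separate these 2 was not examined.

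Genes for chromosome structure had values of the same kind. 3xHMG-box2, which binds mitotic chromosomes, gave 124.4, 124.6 and 166.0 at 12 h and 1896.7, 1263.8 and 358.9 at 24 h (2.79 ± 0.56, adjusted p = 0.0582). TOPII, the topoisomerase that untangles sister chromatids, changed by 2.59 ± 0.55 (adjusted p = 0.0701), and the condensin gene ATSMC2 by 0.95 ± 0.34. At the cytokinetic end of the list, the phragmoplast motor KINESIN-12B changed by 1.87 ± 0.84 (adjusted p = 0.362), and its replicate 3 at 24 h, 48.9, was below its highest 12 h signal of 50.0. TPLATE and KEU, which act in vesicle traffic to the cell plate, changed by 0.18 ± 0.26 and 0.07 ± 0.30.

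The order of arrays within 24 h was shared across the list. Replicate 3 was the lowest of the 3 for 19 of 24 members (79.2%), beside 34.5% of all probe sets, and replicate 1 was the highest for 21 (87.5%), beside 40% of all. The median log2 difference of replicate 1 over replicate 3 was 1.14 at 24 h and -0.03 at 12 h, against 0.02 and 0.03 for all probe sets. Summed over the list, the signals were 4741.3, 4957.4 and 5238.1 at 12 h and 16617.8, 10679.7 and 6424.8 at 24 h. The sums therefore did not overlap, but replicate 3 of 24 h was much nearer the 12 h arrays than replicate 1 was. Of the 65 probe sets called higher, 51 (78.5%) had replicate 3 lowest at 24 h and 55 (84.6%) had replicate 1 highest.

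**Figure D3:**
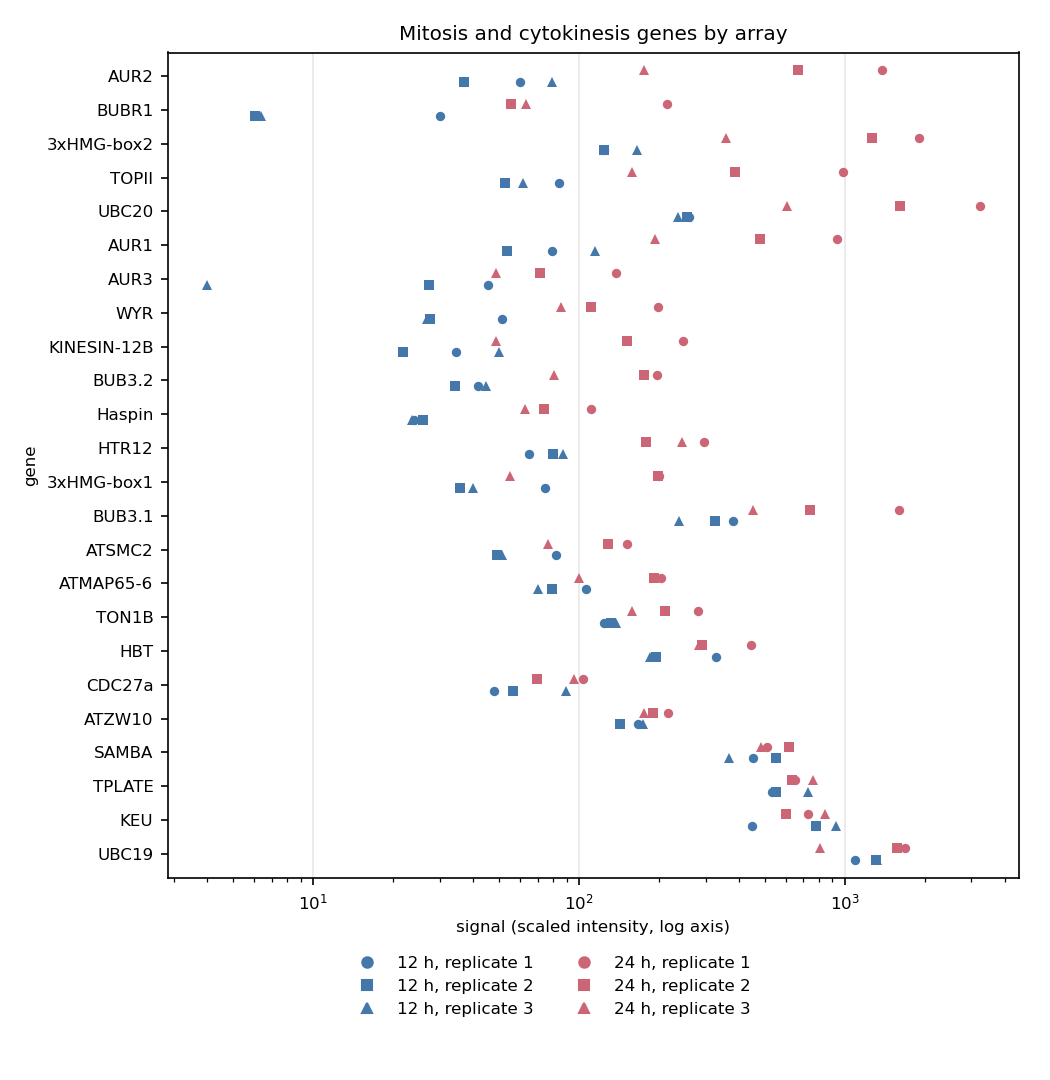
Signals on each array (x axis, log scale) for the 24 measured genes of mitosis and cytokinesis, ordered by log2 change; blue is 12 h, red is 24 h, and the marker shape is the replicate number. The colours do not overlap in 14 genes, and replicate 3 of 24 h is the lowest red point in 19.

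Replication genes copy the chromosomes in S phase. By limma 0 of 5 measured DNA replication genes were called, 2 had an unadjusted p under 0.05, both upward, and the median was 1.04. PRL, the MCM7 subunit of the replicative helicase, gave 377.3, 270.8 and 183.2 at 12 h and 1372.9, 738.7 and 644.1 at 24 h. The times did not overlap (1.71 ± 0.38, adjusted p = 0.0801; 0.0482 with dim probe sets left out). POLA3 and ICU2, subunits of the polymerase alpha-primase complex that starts each new strand, changed by 1.27 ± 0.30 (adjusted p = 0.101) and 1.04 ± 0.52. PSF2 of the GINS complex and POLD3 of polymerase delta changed by 0.34 and 0.13.

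HTB2, a histone H2B gene, was the 1 called member of 9 measured histone and histone chaperone genes, a list that also holds HTR12. Its signals were 1055.2, 1384.1 and 874.6 at 12 h and 3327.5, 2997.8 and 2528.2 at 24 h. They did not overlap, and the gap between the times was wider than the range within either. HTB2 rose 2.70-fold (1.43 ± 0.24, adjusted p = 0.0343), and the call was lost with the block (0.0543). The H2B genes HTB11, HTB4 and HTB1 changed by 0.93, 0.43 and 0.37. HTB2 had already been called between 0 and 12 h, from a mean of 356.4 (1.62, adjusted p = 2.4e-04), a comparison that shares the 12 h arrays. AUR2, by contrast, had a mean of 67.6 at 0 h, and its log2 change from 0 to 12 h was -0.16.

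Tubulins, the subunits of microtubules, gave 0 calls among 7 measured genes and a median of 1.06, and 4 had an unadjusted p under 0.05 upward. TUB1 had the largest change, from 23.5, 48.9 and 38.2 to 139.4, 208.9 and 101.1 (2.02 ± 0.52, adjusted p = 0.126). Of 25 DNA repair and recombination genes 0 were called and 5 had an unadjusted p under 0.05, all upward. RECQ4A, a RecQ helicase that limits crossovers, changed by 2.34 ± 0.45 (adjusted p = 0.0522) and was called at 0.0288 with dim probe sets left out. Its 12 h signals, 8.81, 28.3 and 21.8, were all dim. None of 6 cell cycle regulators was called or had an unadjusted p under 0.05. SIM, a cyclin-dependent kinase inhibitor of endoreduplicating cells, changed by 0.97 ± 0.72.

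Nucleolar and RNA polymerase I and III genes, which serve ribosome production, had values near 0. Of 11 measured genes 0 were called and 0 had an unadjusted p under 0.05. The changes ran from -0.38 to 0.12, with a median of -0.18, which was 0.09 without replicate 1 of 12 h and -0.34 without replicate 3 of 12 h. YAO, a nucleolar protein, had the largest change of the list, with 2648.5, 1212.4 and 1463.5 at 12 h and 1542.0, 1166.0 and 1181.3 at 24 h (-0.38 ± 0.32). Its step before that, from 0 to 12 h, had been 3.31 (adjusted p = 1.6e-05).

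None of 7 measured genes of the xylem secondary wall was called, and 3 had an unadjusted p under 0.05 upward. All 7 changes were above 0, from 0.63 to 2.07, with a median of 0.87, which was 1.39 without replicate 1 of 24 h and 0.57 without replicate 2 of 24 h. IRX15, needed for normal xylan in secondary walls, gave 4.31, 4.81 and 14.9 at 12 h and 5.94, 85.6 and 45.3 at 24 h. All 3 signals of 12 h and the lowest of 24 h were dim, and the times overlapped (2.07 ± 0.84, adjusted p = 0.315). IRX15-L changed by 0.67 ± 0.62, and GUT2, a xylan backbone synthase, by 0.63 ± 0.46. Their means at 36 h were 463.7, 1275.3 and 895.7, against 45.6, 194.2 and 178.8 at 24 h.

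The serine carboxypeptidase-like gene scpl48, listed with the wall genes, gave 615.2, 567.2 and 1069.1 at 12 h and 2199.0, 2264.3 and 1683.3 at 24 h. The times did not overlap, and replicate 3 was the highest at 12 h and the lowest at 24 h. The change was 1.50 ± 0.29 (adjusted p = 0.0527; 0.03 with dim probe sets left out; 0.0706 with the block). In the wall list, unlike the mitotic genes, replicate 1 was not the high array of 24 h: the summed signals were 2598.2, 3462.5 and 2416.0, after 1113.8, 875.8 and 1482.4 at 12 h. The sums of the times did not overlap, but scpl48 made up most of each sum. In 2 of the 7 genes every 24 h signal was above every 12 h signal, which held for 11.7% of all probe sets. Gene by gene, replicate 2 was the highest of 24 h for all 7, and replicate 1 was the lowest for 6.

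Of 11 genes of lignin and its precursors 0 were called, and 2 had an unadjusted p under 0.05, CCR2 and HCT. CCR2, a cinnamoyl-CoA reductase, gave 89.0, 353.0 and 563.6 at 12 h and 3.13, 31.5 and 67.7 at 24 h. The times did not overlap, though the arrays of each spread widely (-3.79 ± 0.97, adjusted p = 0.122). HCT, an acyltransferase of the monolignol pathway, changed by -1.01 ± 0.28 (adjusted p = 0.153). Procambium and cambium genes, which mark vascular stem cells, gave 0 calls of 6 measured, 1 unadjusted p under 0.05 and a median of 0.40 (0.24 without replicate 3 of 12 h). LHW, a bHLH factor that promotes vascular cell divisions, overlapped between the times (0.86 ± 0.42, adjusted p = 0.406).

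**Figure D4:**
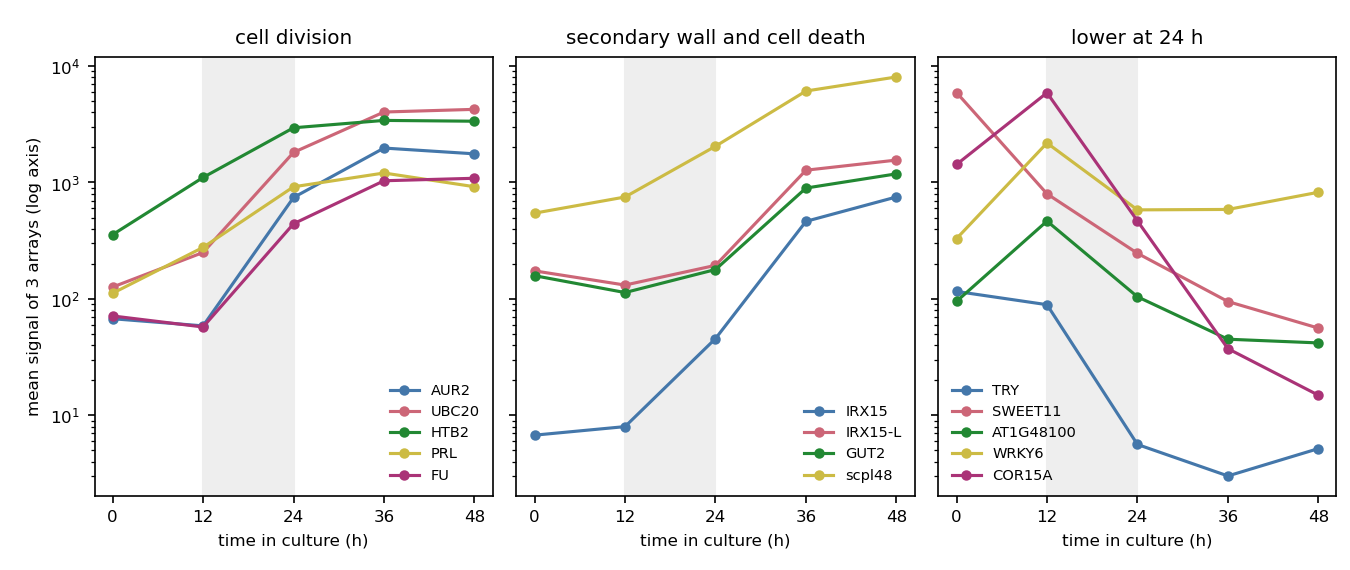
Mean signal of 3 arrays at each time (y axis, log scale) against time in culture in hours (x axis), with the 12 to 24 h step shaded. FU and AUR2 leave their 12 h means within the step, IRX15-L and GUT2 have means of 194.2 and 178.8 at 24 h and of 1275.3 and 895.7 at 36 h, and the mean of SWEET11 is lower at each later time.

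Only 6 named genes fell. TRY, a small MYB protein that blocks trichome fate in neighbouring epidermal cells, gave 115.5, 74.1 and 78.1 at 12 h and 3.06, 6.94 and 6.86 at 24 h. Every 24 h signal was dim and far below the 12 h range, so the fold is uncertain in size. TRY fell by 4.05 on the log2 scale (SE 0.74, adjusted p = 0.0483; 0.0578 with the block). Its mean had been 115.9 at 0 h and stayed dim at 36 h (3.02) and 48 h (5.18). None of the other 5 measured guard cell and trichome markers was called, and the summed signals of the 6 ran from 411.6 to 587.1 at 12 h and from 194.2 to 458.3 at 24 h. The part of those cells in the value of TRY was not tested.

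SWEET11, which exports sucrose from phloem parenchyma, gave 1063.2, 635.8 and 697.9 at 12 h and 258.2, 222.9 and 258.3 at 24 h. The 24 h arrays lay close together and below all of 12 h. It fell by 1.66 on the log2 scale (SE 0.29, adjusted p = 0.0412; 0.0449 with the block). It was the only called member of 17 sugar transporter genes and of 2 measured phloem genes. The other phloem gene, OPS, had overlapping signals (0.47 ± 0.45). SWEET11 had fallen from a mean of 5927.1 at 0 h to 799.0 at 12 h, a step called on shared 12 h arrays, and its means at 36 and 48 h were 94.9 and 56.1.

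The other 4 that fell have no symbol in the gene table. AT1G48100 gave 529.1, 479.1 and 389.4 at 12 h and 99.7, 83.5 and 129.7 at 24 h. The ranges of the times were far apart. It fell by 2.17 on the log2 scale (SE 0.33, adjusted p = 0.0337; 0.0449 with the block), after a rise of 2.32 between 0 and 12 h (adjusted p = 1.8e-04) on shared 12 h arrays. AT5G64230 fell by 1.52 without being called with the block (0.0563), AT1G31040 by 2.87 and AT5G54720 by 4.01, AT1G31040 and AT5G54720 to dim signals on every 24 h array.

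Several genes were called only with the block. B120 had the smallest p of any named gene among the calls with the block. Its signals were 299.8, 497.0 and 1306.7 at 12 h and 32.6, 91.7 and 220.7 at 24 h. Replicate 3 was highest and replicate 1 lowest at both times, and each replicate was lower at 24 h than at 12 h. The change was -2.73, with adjusted p = 0.0192 with the block and 0.179 without it. WRKY6, a transcription factor of senescence and phosphate starvation, gave 1264.0, 2127.6 and 3159.7 and then 284.2, 592.4 and 869.1, in the same order of replicates. Its change was -1.95 ± 0.44, with adjusted p = 0.0449 with the block and 0.0803 without it.

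That order was common among the probe sets called lower with the block. Of these 31, replicate 3 was highest for 25 at 12 h (80.6%) and for 23 at 24 h (74.2%), beside 37.2% and 37.8% of all probe sets. The 41 called higher with the block mostly went the other way. Among them replicate 3 was lowest for 26 at 12 h (63.4%) and for 28 at 24 h (68.3%), beside 36.7% and 34.5% of all. No other measured WRKY gene of 7 was called in either fit. Calmodulin-like proteins, small calcium sensors, gave 0 calls of 7, 2 unadjusted p under 0.05 downward and the lowest list median, -1.15, which was -0.50 without replicate 1 of 24 h. CML37 gave 55.3, 787.6 and 1527.9 at 12 h and 12.4, 38.4 and 214.7 at 24 h. Replicate 3 was again highest, and the times overlapped (-3.12 ± 1.23, adjusted p = 0.306; 0.155 with the block). CML42 changed by -1.36 ± 0.40 (adjusted p = 0.167; 0.0803 with the block).

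Cold and dehydration genes gave 0 calls of 9, 3 unadjusted p under 0.05 downward and a median of -0.79. COR15A, a cold-induced chloroplast protein, gave 7857.8, 1135.4 and 8698.9 at 12 h and 135.3, 155.6 and 1111.4 at 24 h. Replicate 2 was the low array of 12 h, and its signal there was only slightly above the highest of 24 h. The change was -3.90 ± 1.15 (adjusted p = 0.175; 0.0995 with the block). COR15B changed by -2.02 ± 0.47 (adjusted p = 0.0944) and LTI30, a dehydrin, by -2.20 ± 0.74. The median of the list was -1.67 without replicate 2 of 12 h and -0.19 without replicate 3 of 12 h. Of 6 jasmonate and wounding genes 0 were called and 0 had an unadjusted p under 0.05. JRG21, a jasmonate-regulated gene, gave 5327.6, 2693.3 and 5209.1 and then 1422.5, 1558.7 and 4641.8, with overlap (-0.95 ± 0.75).

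UDP-glycosyltransferases, which attach sugars to hormones and secondary metabolites, gave 0 calls of 49, with 1 unadjusted p under 0.05 upward and 5 downward. In 12 of the 49 every 24 h signal was below every 12 h signal, which held for 7.17% of all probe sets. UGT71B6, which glucosylates abscisic acid, gave 14.2, 41.2 and 81.8 at 12 h and 2.95, 1.66 and 7.94 at 24 h. The 24 h signals were all dim, and the times did not overlap (-3.42 ± 0.67, adjusted p = 0.0536; 0.0319 with dim probe sets left out). GT72B1 gave 1333.0, 1374.2 and 2201.0 and then 330.7, 647.3 and 645.9 (-1.62 ± 0.47, adjusted p = 0.171).

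Hormone response genes gave no call, and 3 of 20 auxin genes had an unadjusted p under 0.05, 2 upward. Of the 20 the largest change was that of IAA29, an Aux/IAA protein, with 31.5, 36.7 and 9.33 at 12 h and 60.5, 189.5 and 57.6 at 24 h (1.98 ± 0.69, adjusted p = 0.248). IAA18, a repressor of the same family, gave 1861.6, 1705.0 and 1896.0 and then 684.4, 873.3 and 1018.1. Both times were tight and apart, and the change was -1.10 ± 0.24 (adjusted p = 0.0727; 0.0425 with dim probe sets left out). Of 8 cytokinin response genes 0 were called and 0 had an unadjusted p under 0.05, and the type-A response regulator ARR15 changed by -0.80 ± 1.01.

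Photosynthesis genes of the 2 genomes had medians of opposite sign, and none of either group was called. All 43 plastid-encoded genes had changes below 0, from -1.19 to -0.22, with a median of -0.52 (-0.79 without replicate 3 of 24 h). Of these, 5 had an unadjusted p under 0.05. In 15 every 24 h signal was below every 12 h signal, beside 7.17% of all probe sets. The gene for the photosystem I core protein psaA gave 237.3, 314.6 and 1042.4 at 12 h and 82.4, 139.9 and 566.5 at 24 h (-1.19 ± 0.84, adjusted p = 0.594). Replicate 3 was the highest at both times, as it was for 35 of the 43 genes at 12 h (81.4%) and 33 at 24 h (76.7%). Of 21 nuclear photosynthesis genes 20 had changes above 0, with a median of 0.42 and 1 unadjusted p under 0.05. That median was 0.23 without replicate 1 of 12 h, 0.25 without replicate 1 of 24 h and 0.27 with arrays centred on their median. Replicate 1 was the highest of 24 h for 17 of the 21 (81%).

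In tetrapyrrole synthesis, the pathway to chlorophyll and haem, 0 of 9 genes were called, and 5 had an unadjusted p under 0.05 upward, beside 8.26% of all probe sets. HEMA3, of the glutamyl-tRNA reductase family, had the largest change of the list, with 6.81, 14.1 and 6.19 at 12 h and 30.6, 32.1 and 43.2 at 24 h. The times did not overlap, though 5 of the 6 signals were dim (2.05 ± 0.45, adjusted p = 0.0749; 0.0458 with dim probe sets left out; 0.092 with an offset of 32). HEMA3 passed the filter only by its means at 24 h and 36 h, 35.3 and 36.7, so the filtered value adds no support. PORB, which makes chlorophyllide in light, gave 111.1, 326.7 and 98.2 at 12 h and 1006.9, 481.9 and 247.2 at 24 h, with overlap (1.69 ± 0.71, adjusted p = 0.328). HEMA2, of the same family as HEMA3, went the other way in value, from 120.3, 254.1 and 790.8 to 70.3, 95.5 and 177.1 (-1.45 ± 0.58, adjusted p = 0.309).

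**Figure D5:**
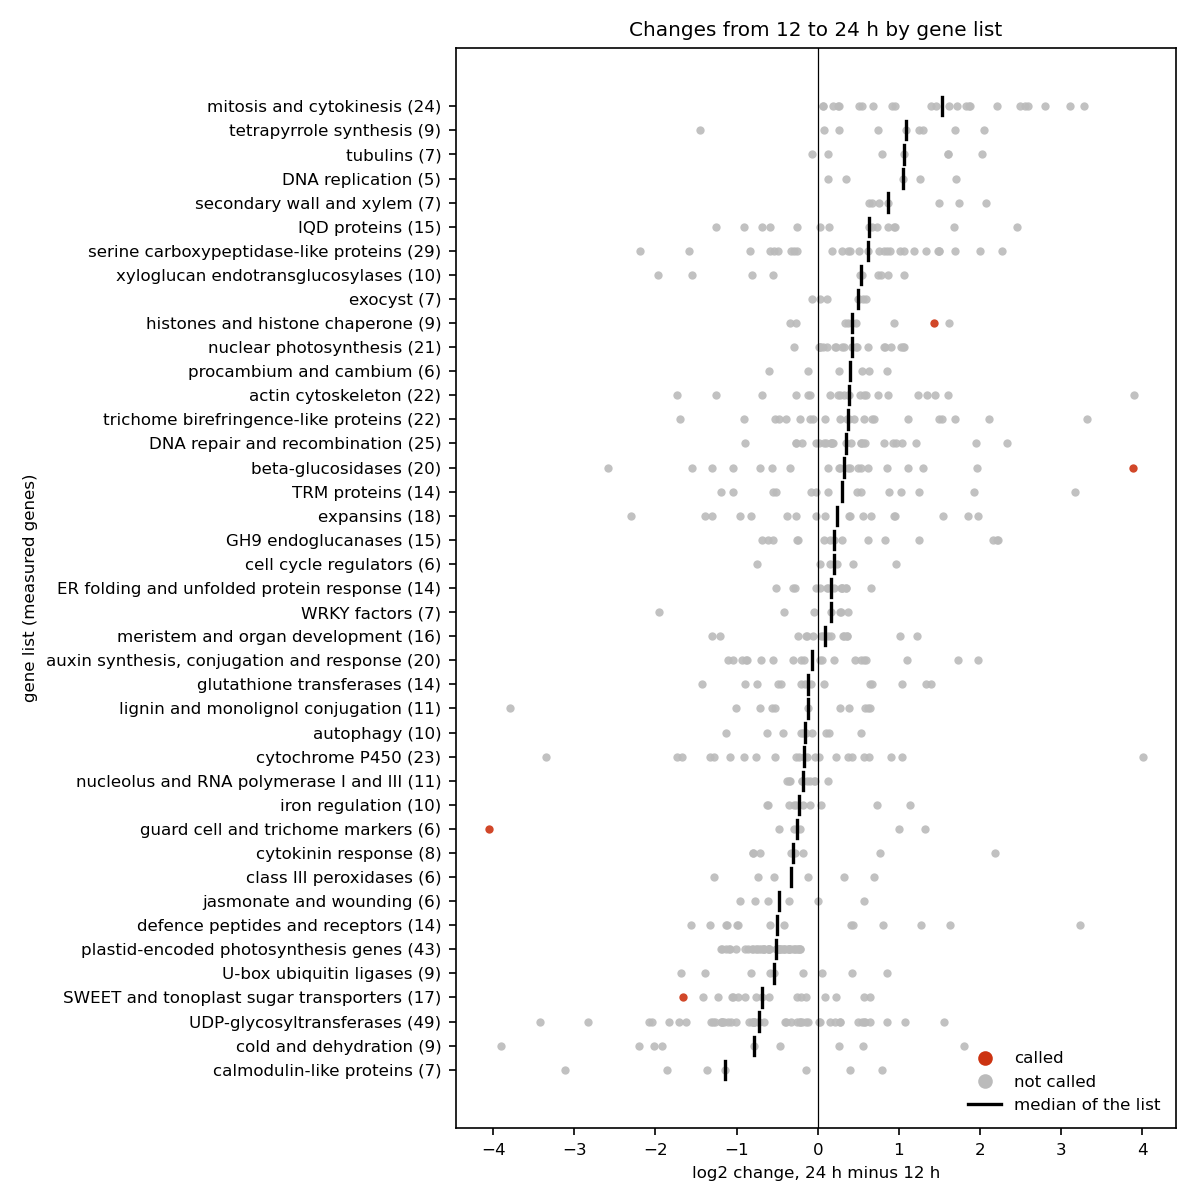
Log2 changes, 24 h minus 12 h (x axis), of the measured genes of each list with at least 5 (y axis, number measured in parentheses), ordered by the list's median, drawn as a black bar; called genes are red. Mitosis and cytokinesis has the highest median, 1.53, calmodulin-like proteins the lowest, -1.15, and the called genes in these lists are HTB2, BGLU15, TRY and SWEET11.

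Other families of cytoskeleton, wall and membrane traffic held no call. Of all probe sets 13.3% had an unadjusted p under 0.05, 8.26% upward and 5.01% downward, and 2 of 15 GH9 genes is near that share. The changes so marked were upward in 4 actin genes and downward in 1. They were upward in 6 trichome birefringence-like genes and downward in 1, and upward in the 2 GH9 genes. Among 22 actin genes, of which 5 had an unadjusted p under 0.05, NET3C, an actin-binding protein, gave 4.34, 1.51 and 4.57 at 12 h and 160.0, 95.95 and 6.43 at 24 h. Replicate 3 of 24 h was nearly as dim as the 12 h arrays (3.90 ± 1.04, adjusted p = 0.136). Among 15 GH9 endoglucanases, enzymes that trim wall glucans and of which 2 had an unadjusted p under 0.05, GH9B8 gave 218.5, 118.8 and 89.8 and then 345.3, 914.5 and 747.4, without overlap (2.22 ± 0.65, adjusted p = 0.167). Among 22 trichome birefringence-like proteins, which acetylate wall polymers and of which 7 had an unadjusted p under 0.05, TBL34 changed by 3.32 ± 0.91 (adjusted p = 0.143). Among 14 genes of protein folding in the endoplasmic reticulum, 1 had an unadjusted p under 0.05, the calreticulin gene CRT1b, with 0.65 ± 0.21 (adjusted p = 0.215).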

How the data were processed

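RNA of leaf disks was measured on 15 one-colour Affymetrix arrays, 3 at each of 5 times; the step compared uses 6. Per the labels, biotin-labelled cRNA was made from total RNA. The authors deposited linear intensities. The submitters' processing notes name GCOS and MAS5 without versions; in the sources used here these and any genome build are not given. The deposited intensities of every array have a mean near 500 after trimming 2% at each end, so a shift of most transcripts together cannot be seen. No detection calls were used, and no 2 arrays were identical.

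Intensities were taken to log2 with no offset, filter or further normalization, and 64 control probe sets were left out. Group means of the 5 times were fitted to all 15 arrays with limma 3.58.1 (R 4.3.3; 10 residual degrees of freedom) and tested two-sided, with Benjamini-Hochberg adjustment over 22746 probe sets. The fit was also run on simulated data with independent noise and no replicate effect. Changes were planted only in probe sets whose mean signal was not dim. That run therefore cannot show how the calls fare with deviations shared by replicates or with changes that rest on dim signals.

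Same-numbered arrays of 12 and 24 h had deviations from their group means that correlated at 0.383, 0.151 and 0.451, and differently numbered ones at -0.390 to 0.016. Such deviations sum to 0 over the arrays of a time, so the same-numbered and differently numbered values are not independent. The pairing rests on these values and the shared numbers. The block is therefore given beside results it changes. In the block fit the array of 36 h whose title carries no number had a level of its own.

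The annotation table pairs 13513 probe sets with 1 gene and 503 with several and does not list 8730; 13436 matched the TAIR10.1 gene table, used for names. A gene with several probe sets in a list is represented by the brightest. The arrays compared were set by their titles. The 44 lists and the genes in them were chosen with earlier results of these data known, and some lists were written from the annotation table. Genes named by rule are the 10 highest and 10 lowest called changes (6 were lower) with arrays apart and a mean that was not dim, up to 4 called members of each list or else its largest change, and the 5 smallest p among calls with the block. Other list members, and ATMPK13, were named after their values were seen. Promoters were not examined. Alternatives were 2 filters, an offset of 32, median centring, quantile normalization, a prior variance following the signal, the 6 arrays alone, the block, each array left out and, chosen after seeing the data, the 12 arrays without 0 h.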

Additional observations from a re-analysis of the deposited data

How the results depend on the processing

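The number of calls depended on the processing. All 78 called changes kept their sign under each alternative in which the probe set was tested. Because their signals did not overlap between the times, this was fixed in advance for all alternatives but median centring and quantile normalization. Against 78 calls (65 higher, 13 lower), leaving out probe sets dim at all 5 times gave 218 (175 and 43), leaving out those dim at both 12 h and 24 h gave 265 (204 and 61), an offset of 32 gave 303 (217 and 86), and a prior variance that follows the signal gave 276 (214 and 62). Median centring gave 43 higher and 20 lower, and quantile normalization 47 and 13. With the replicate block the counts were 41 and 31. The 6 arrays alone gave 0 calls (0 higher, 0 lower) by limma, with 2575 probe sets at an unadjusted p under 0.05, and 0 with the block (3892). The 12 arrays without 0 h, an alternative chosen after seeing the data, gave 105 (85 and 20). Leaving out 1 array at a time gave from 0 to 205 calls, from 0 to 165 higher and from 0 to 40 lower.

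Of the 20 named genes called without the block, 11 were called with it, and 5 to 20 under the omissions that left any call. The medians of several lists crossed 0 when 1 array was left out. The median of the mitosis list was 1.05 with the offset. The exocyst median, 0.50, was 0.22 with the offset. Over omissions of 1 array the medians ran from -0.010 to 0.56 for exocyst genes, from -0.32 to 0.23 for WRKY factors, from -0.67 to 0.35 for lignin genes, from -0.34 to 0.09 for nucleolar genes, from -0.95 to 0.34 for class III peroxidases, from -1.67 to -0.19 for cold and dehydration genes, and from -1.64 to -0.50 for calmodulin-like proteins.

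The number of arrays limits the precision, and folds that rest on signals under 34.2 are uncertain in size. Of the genes listed for cell types, 2 of 8 for phloem, 6 of 15 for procambium and 7 of 34 for xylem were measured.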
